A study of Mus musculus with 6 samples.

Results

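The genes described here are the 55 entries, of 23282 in each count file, whose symbol starts with Srsf, Hnrnp, Snrp, Sf3a, Sf3b or U2af. They comprise 11 SR genes, 20 hnRNP genes, 12 snRNP protein genes, 3 SF3a genes, 6 SF3b genes and 3 U2AF genes. The cells were unstimulated regulatory T cells (Treg) of C57BL/6 mice, obtained from spleen by flow sorting. There were 3 libraries of Treg with a conditional knockout of inositol polyphosphate multikinase (IPMK cKO) and 3 libraries of wild type Treg, each named a biological replicate. The libraries hold tags from the 3′ end of polyadenylated RNA, so that a gene's tag count does not grow with transcript length and does not resolve splice isoforms. The sources used here do not give the Cre driver, the deleted part of Ipmk, the age or sex of the mice, or whether each library came from its own animal. The p-values therefore measure only the spread between these libraries, part of which may be technical.

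Messenger RNA precursors are spliced by the spliceosome, which is built from small nuclear ribonucleoproteins (snRNPs) and many further proteins. The U1 snRNP recognizes the start of an intron, and the factor U2AF marks its end. The U2 snRNP, with its SF3a and SF3b subcomplexes, then binds the branch point. SR proteins, which carry arginine-serine repeats, mostly promote the use of exons they bind, whereas heterogeneous nuclear ribonucleoproteins (hnRNPs) package nascent RNA and often repress exons. In T cells, the alternative splicing of the phosphatase CD45 is a known target of hnRNP L and hnRNP LL.

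Each library had 7464546 to 8980395 counts, of which 5287300 to 7130660 lay outside the ribosomal RNA precursor Rn45s, which took 16.7% to 32.1%. Ipmk had 3, 21 and 0 counts in IPMK cKO replicates 1 to 3, against 129, 77 and 99 counts in wild type replicates 1 to 3. Its groups did not overlap, although 3′ tags check the deletion only if they lie in or depend on the deleted part, which is not known here. Of 8 Treg markers, 7 were in the files, and their summed level was 2247 to 2642 CPM (counts per 1000000 counts of the scaled library size) in IPMK cKO and 2304 to 3149.5 CPM in wild type. Foxp3 itself was at 72.0 to 85.1 CPM in IPMK cKO and 10.3 to 80.6 CPM in wild type. Of the 2 CD8 T cell markers, Cd8a had no count in any library, and Cd8b1 had 15 to 66 counts in IPMK cKO and 65 to 95 in wild type. Of the 3 NK cell markers, Ncr1 had no count in any library. Klrb1c had 0 to 1 counts in IPMK cKO and 0 to 66 in wild type. Nkg7 had 105 to 368 counts in IPMK cKO and 133 to 208 in wild type. The summed markers of myeloid cells were 14.4 to 77.6 CPM in IPMK cKO and 51.4 to 70.4 CPM in wild type. The sums for B cells were 7.10 to 13.1 CPM in IPMK cKO and 5.47 to 14.2 CPM in wild type, and those for NK cells 13.7 to 51.8 CPM in IPMK cKO and 19.03 to 28.4 CPM in wild type. Those for CD8 T cells were 2.11 to 8.62 CPM in IPMK cKO and 7.82 to 12.2 CPM in wild type, and those for erythroid cells 0 to 16.7 CPM in IPMK cKO and 0.120 to 56.3 CPM in wild type. The part of such cells in the results was not tested. IPMK cKO replicate 1 stood apart from the other libraries, being the lowest of the 6 for 29.0% and the highest for 29.2% of all genes tested. Results that rest on that library are given with and without it. Wild type replicate 1 came next, being the lowest for 17.9% and the highest for 16.7% of all genes tested. It also had the lowest level of Foxp3, 10.3 CPM.

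Of the 55 genes, 53 passed the filter on low counts and 2, Srsf12 and Snrpn, did not. The quasi-likelihood test of edgeR called 0 of the 53 higher and 0 lower at a Benjamini-Hochberg adjusted p of 0.05, and called 0% of all 10475 genes tested in each direction. DESeq2 and limma-voom called 0 of the 53 as well, with DESeq2 calling 0.0286% of all genes lower and 0% higher, and limma-voom 0% in each direction. At an unadjusted p under 0.05, edgeR had 0 genes of the set higher and 2 lower, against 1.37% and 1.19% of all genes. DESeq2 had 1 higher and 2 lower (2.09% and 1.73% of all genes), and limma-voom 0 and 3 (1.57% and 2.44%). The standard errors of the log2 fold changes ran between 0.25 and 1.88 with a median of 0.39, and estimates between −1.34 and +0.86 all fell short of the threshold at this replication.

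Estimates lay below 0 for 37 of the 53 genes and above 0 for 16, and the median log2 fold change, IPMK cKO over wild type, was −0.13. For all genes tested, 48.2% of estimates lay below 0 and the median was +0.03. Without IPMK cKO replicate 1, 35 of 54 estimates lay below 0 with a median of −0.08, against 50.9% and −0.01 for all genes. The tally moved with the setting: with library totals without Rn45s it was 44 below and 9 above 0 (83.0% below, against 55.4% of all genes), and without both libraries numbered 1 it was 32 below and 22 above (59.3%, against 50.8% of all genes). The share of counts outside Rn45s taken by the 55 genes was 0.820%, 0.975% and 1.10% in IPMK cKO replicates 1 to 3, against 1.12%, 1.03% and 1.12% in wild type replicates 1 to 3. Thus 2 of the IPMK cKO libraries lay below every wild type library and the third overlapped them. In sorted bulk cells, fewer cells of a type and less RNA per cell cannot be told apart.

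**Figure D1:**
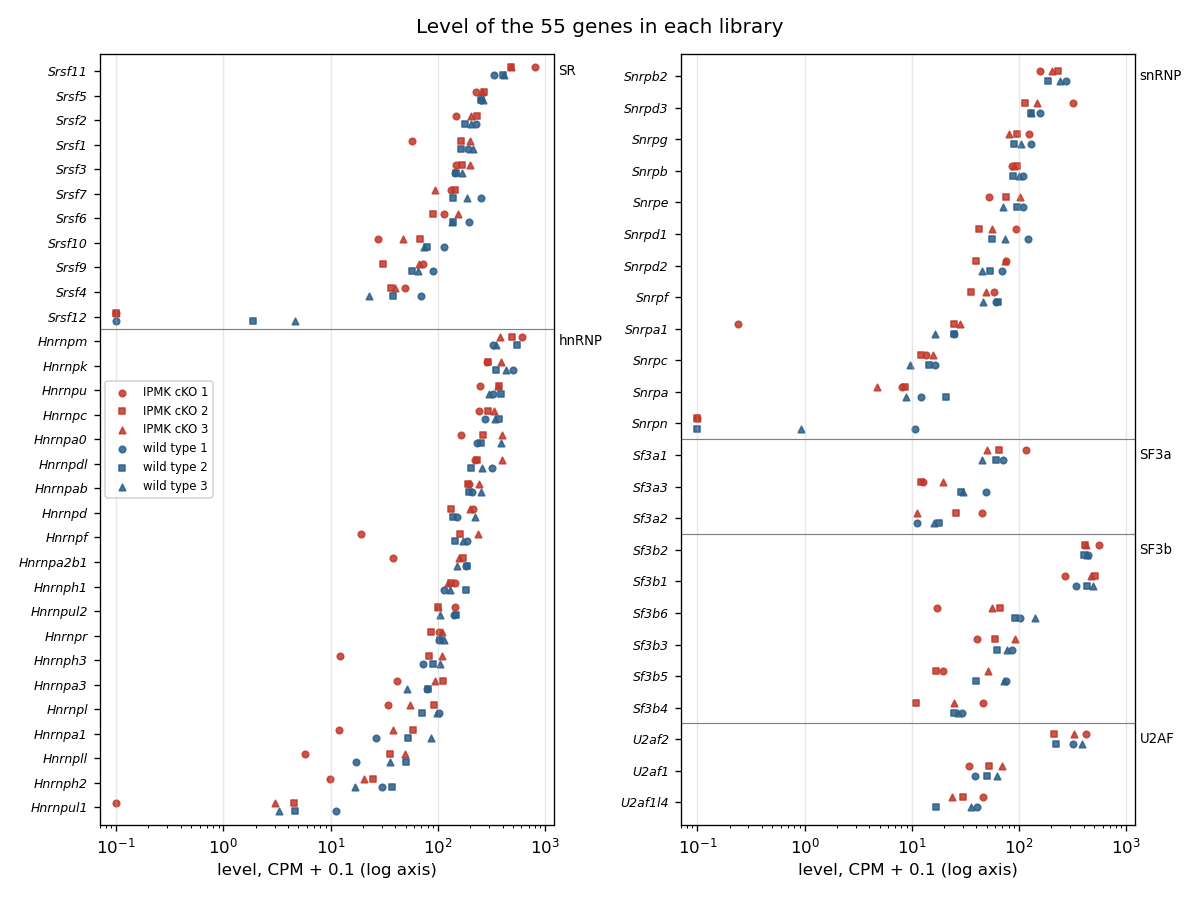
Level of each of the 55 genes in CPM (log axis, after adding 0.1) in the 3 IPMK cKO libraries (red) and the 3 wild type libraries (blue), with the replicate given by the marker and genes ordered within their class by mean level. IPMK cKO replicate 1 lies far to the left of the other 5 libraries for Hnrnpf (19.00 CPM), Hnrnph3 (12.1 CPM), Hnrnpa2b1 (37.9 CPM) and Snrpa1 (0.141 CPM).

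The tested genes were abundant relative to the transcriptome, with a median mean level of 94.3 CPM and a range of 4.36 to 485 CPM, against a median of 25.1 CPM over all genes tested. Their coefficient of variation between libraries had a median of 32.9% in IPMK cKO and 21.5% in wild type, against 54.7% and 34.4% for all genes. It was larger in IPMK cKO for 41 of the 53 genes, or 77.4%, against 69.0% of all genes. These comparisons with all genes were not matched for level. IPMK cKO replicate 1 was the lowest of the 6 libraries for 25 of the 53 genes and IPMK cKO replicate 2 for 13, against 29.0% and 11.0% of all genes. Wild type replicate 1 was the highest for 16 of the genes (30.2%), against 16.7% of all genes.

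**Figure D2:**
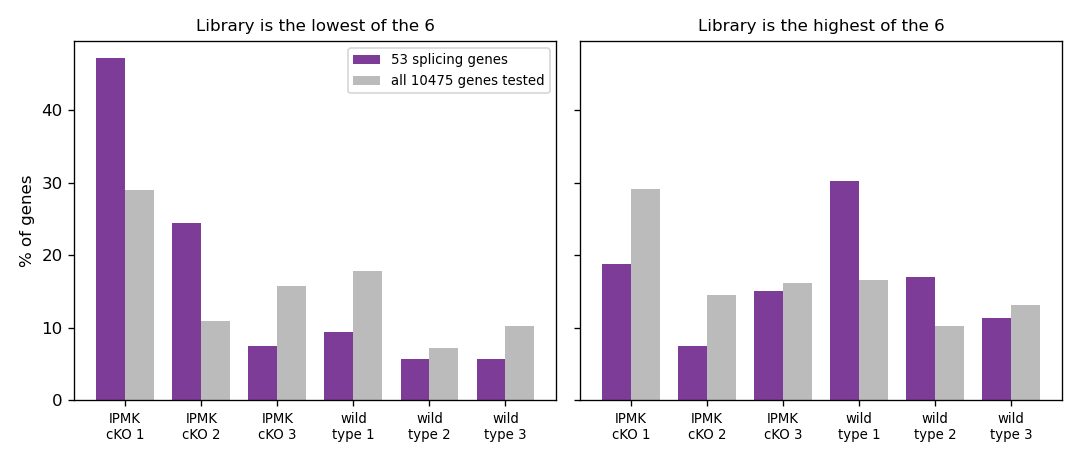
Percentage of genes for which each library had the lowest (left) or the highest (right) level of the 6, for the 53 tested splicing genes (purple) and all 10475 genes tested (grey). IPMK cKO replicate 1 was lowest for 47.2% of the splicing genes and IPMK cKO replicate 2 for 24.5%, against 29.0% and 11.0% of all genes.

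Among the SR genes, Srsf11 was the most abundant, and it was the only one of the 53 genes whose 3 IPMK cKO libraries all lay above the wild type range. Such complete separation was seen for 4.74% of all genes tested in the higher and 5.66% in the lower direction, and 4 of the 53 genes separated in the lower direction, or 1.89% and 7.55% of the set, near the shares of all genes. Srsf11, an SR-related protein, was at 807, 478 and 476 CPM in IPMK cKO replicates 1 to 3, against 333, 400.4 and 415 CPM in wild type replicates 1 to 3. Its estimate was +0.62 (SE 0.29, unadjusted p = 0.0597, edgeR adjusted p = 0.9999) and +0.31 without IPMK cKO replicate 1, its highest library. Srsf10, an SR-like protein that acts as a splicing repressor when dephosphorylated, was at 27.7, 68.2 and 46.9 CPM in IPMK cKO, against 112, 78.99 and 73.4 CPM in wild type. Here every IPMK cKO library was the lower, with replicate 1 the lowest. The estimate of Srsf10 was −0.89 (SE 0.41, unadjusted p = 0.0544, edgeR adjusted p = 0.9999), and −0.63 without that library.

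The groups overlapped for the other abundant SR genes. Srsf5, the second most abundant, was at 225, 268 and 255 CPM in IPMK cKO, against 251, 252 and 265 CPM in wild type, the narrowest spread of the class. Srsf2 (SC35), a component of nuclear speckles, was at 148, 229.8 and 203 CPM in IPMK cKO, against 224, 179 and 204 CPM in wild type, and the groups overlapped. Their estimates were −0.04 (SE 0.25) and −0.06 (SE 0.29), and +0.03 and +0.09 without IPMK cKO replicate 1. Srsf3 and Srsf7 are related proteins that also link splicing to mRNA export. Srsf3 was at 148, 168 and 199.9 CPM in IPMK cKO, against 144, 147 and 168 CPM in wild type (estimate +0.17, SE 0.28). Srsf7 was at 133, 145 and 93.3 CPM in IPMK cKO, against 252, 139 and 188 CPM in wild type, where the groups overlapped through wild type replicate 2. Its estimate was −0.64 (SE 0.33, unadjusted p = 0.0750, edgeR adjusted p = 0.9999). Over the libraries left out in turn the Srsf7 estimate ran −0.85 to −0.40.

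Srsf1 (SF2/ASF), the prototype of the family, was at 56.6, 163 and 199 CPM in IPMK cKO, against 191, 162 and 211 CPM in wild type. Its IPMK cKO replicate 1 was 3.38-fold below the median of the other 5 libraries, and the other pair of IPMK cKO libraries lay within the wild type range. The estimate for Srsf1 was −0.43 (SE 0.42), and −0.06 without that library. Srsf6, a relative of Srsf4 and Srsf5, was at 113, 89.2 and 152 CPM in IPMK cKO, against 195, 138 and 134 CPM in wild type (estimate −0.40, SE 0.32). Srsf9 was at 71.6, 30.7 and 67.1 CPM in IPMK cKO, against 89.2, 57.1 and 65.4 CPM in wild type (estimate −0.32, SE 0.42), and Srsf4 at 48.8, 36.7 and 39.3 CPM in IPMK cKO, against 69.3, 37.6 and 22.7 CPM in wild type (estimate −0.05, SE 0.49). The groups overlapped for these 3 genes, and without IPMK cKO replicate 1 the estimates of Srsf9 and Srsf4 were −0.53 and −0.19. Srsf12 had 0 counts in each IPMK cKO library, against 0, 13 and 44 counts in wild type. Counted over the group against a floor of 3 counts, it was at least 18.5-fold lower in IPMK cKO, a bound that reflects counting error and leaves the spread among wild type libraries aside. Over the 10 tested SR genes, 8 estimates were below 0 and 2 above, with a median of −0.19. Without IPMK cKO replicate 3 the median was −0.47. Of the counts outside Rn45s, the 11 SR genes took 0.223% ± 0.0174 in IPMK cKO and 0.243% ± 0.0210 in wild type (SD, n = 3 each). Srsf4 overlaps Gm12992 on the other strand at its transcript end, so its count is uncertain.

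The hnRNP genes were the largest class and held the largest share of counts. Of the counts outside Rn45s they took 0.428% ± 0.105 in IPMK cKO and 0.493% ± 0.0128 in wild type (SD, n = 3 each). The median level per gene was 142 CPM, against 161 CPM for the SR genes. All 20 were tested: the log2 fold change was below 0 for 16 and above 0 for 4 (median −0.18), and none separated the groups. The class share was 0.315%, 0.447% and 0.522% in IPMK cKO replicates 1 to 3, against 0.479%, 0.495% and 0.505% in wild type. IPMK cKO replicate 1 lay far below, and replicate 3 of that group was the highest of all 6. Without IPMK cKO replicate 1 the median estimate of the class was −0.05.

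The 3 most abundant were Hnrnpm, which binds GU-rich RNA, Hnrnpk, a KH-domain protein that binds C-rich RNA, and Hnrnpu, a nuclear matrix protein. Hnrnpm was at 606, 488 and 378 CPM in IPMK cKO, against 325, 541 and 351 CPM in wild type (estimate +0.27, SE 0.30). Hnrnpk was at 289, 289.5 and 386 CPM in IPMK cKO, against 504, 346 and 431 CPM in wild type, with an estimate of −0.41 (SE 0.28), and the groups overlapped through IPMK cKO replicate 3. Hnrnpu was at 248, 369.7 and 364 CPM in IPMK cKO, against 326, 384 and 302 CPM in wild type (estimate −0.04, SE 0.28). The groups overlapped for all 3 genes. Leaving out IPMK cKO replicate 1 gave estimates of +0.09 for Hnrnpm, −0.35 for Hnrnpk and +0.12 for Hnrnpu. Hnrnpc, which binds U-rich tracts, Hnrnpa0, Hnrnpab, Hnrnpd (AUF1), Hnrnpdl, Hnrnph1, Hnrnpr and Hnrnpul2 had estimates between −0.18 and +0.12 and overlapping groups.

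Among these, Hnrnpc was at 241, 292 and 334 CPM in IPMK cKO, against 273, 368 and 343 CPM in wild type, with overlapping groups. Hnrnpa0 varied more, at 164, 263 and 391 CPM in IPMK cKO, against 231, 251 and 385 CPM in wild type, and replicate 3 was the highest in both groups. Hnrnpd, which binds AU-rich elements and also promotes mRNA decay, was at 211, 133 and 199.6 CPM in IPMK cKO, against 149.6, 139 and 222 CPM in wild type. Its paralog Hnrnpdl was at 219.6, 232 and 395 CPM in IPMK cKO, against 321, 201 and 256 CPM in wild type. Neither separated the groups. Hnrnpab was at 193, 189 and 242 CPM in IPMK cKO, against 208, 195 and 251 CPM in wild type, and its transcript end overlaps that of Phykpl on the other strand, which leaves its count uncertain. Hnrnpr was at 103, 86.6 and 110.0 CPM in IPMK cKO, against 101, 105 and 114 CPM in wild type. Hnrnpul2 was at 145, 100.2 and 99.4 CPM in IPMK cKO, against 142, 146 and 104 CPM in wild type, so that 2 IPMK cKO libraries lay below the wild type range and the first lay within it.

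Other hnRNP genes were low in IPMK cKO replicate 1, as were many genes outside the class. In that library 8 of the 20 hnRNP genes were more than 2-fold below the median of the other 5 libraries and 0 more than 2-fold above. For all genes tested the shares were 32.9% and 19.6%, so the 8 were near the share of all genes. Over all 53 genes the counts were 14 below (26.4%) and 2 above (3.77%), both shares being below those of all genes. The 53 genes were more abundant than most genes tested, and these shares were not matched for level. Hnrnpf, which binds G-runs, was at 19.00, 160.2 and 235 CPM in IPMK cKO, against 187, 145 and 172 CPM in wild type, a 9.06-fold deficit in replicate 1. Its relative Hnrnph3 was at 12.1, 81.9 and 108 CPM in IPMK cKO, against 72.9, 89.4 and 105 CPM in wild type. The related Hnrnph2, which has a pseudogene copy of its transcript end, was at 9.71, 24.8 and 20.2 CPM in IPMK cKO, against 29.96, 37.4 and 16.6 CPM in wild type. The estimates of Hnrnpf, Hnrnph3 and Hnrnph2 were −0.28, −0.40 and −0.62, and +0.23, +0.09 and −0.32 without IPMK cKO replicate 1. Hnrnph1, of the same subfamily, was not low in that library. It was at 143, 132 and 123 CPM in IPMK cKO, against 113, 183 and 128 CPM in wild type.

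The exon repressors Hnrnpa2b1 and Hnrnpa1 were among the 8. Hnrnpa2b1 was at 37.9, 172 and 158 CPM in IPMK cKO, against 181, 185 and 149 CPM in wild type, and Hnrnpa1 was at 11.96, 57.9 and 37.95 CPM in IPMK cKO, against 26.5, 52.9 and 86.6 CPM in wild type. Replicates 2 and 3 of IPMK cKO lay within the wild type range for both genes, whose estimates were −0.49 (SE 0.47) and −0.62 (SE 0.61), and −0.07 and −0.21 without replicate 1. The regulators of CD45 splicing were low there too. Hnrnpll was at 5.63, 35.4 and 49.1 CPM in IPMK cKO, against 16.96, 50.2 and 35.9 CPM in wild type (estimate −0.19, SE 0.73). Hnrnpl was at 34.3, 91.2 and 54.2 CPM in IPMK cKO, against 101, 70.2 and 97.8 CPM in wild type (estimate −0.58, SE 0.41, unadjusted p = 0.184, edgeR adjusted p = 0.9999). Hnrnpa3 was at 41.5, 110.4 and 93.3 CPM in IPMK cKO, against 79.4, 79.8 and 51.7 CPM in wild type (estimate +0.22, SE 0.42), and 25 other annotated genes share a near-identical transcript end with it, which makes its count uncertain. With that library left out the estimates were +0.30 for Hnrnpll, −0.31 for Hnrnpl and +0.53 for Hnrnpa3. Hnrnpul1, the least abundant tested gene of the class, was at 0, 4.44 and 2.94 CPM in IPMK cKO, against 11.1, 4.51 and 3.22 CPM in wild type (estimate −1.34 (SE 1.88), and −0.77 without the first library). Its 0 counts in the first of these libraries are compatible with a level of up to 0.422 CPM, the value of 3 counts, by counting error alone.

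**Figure D3:**
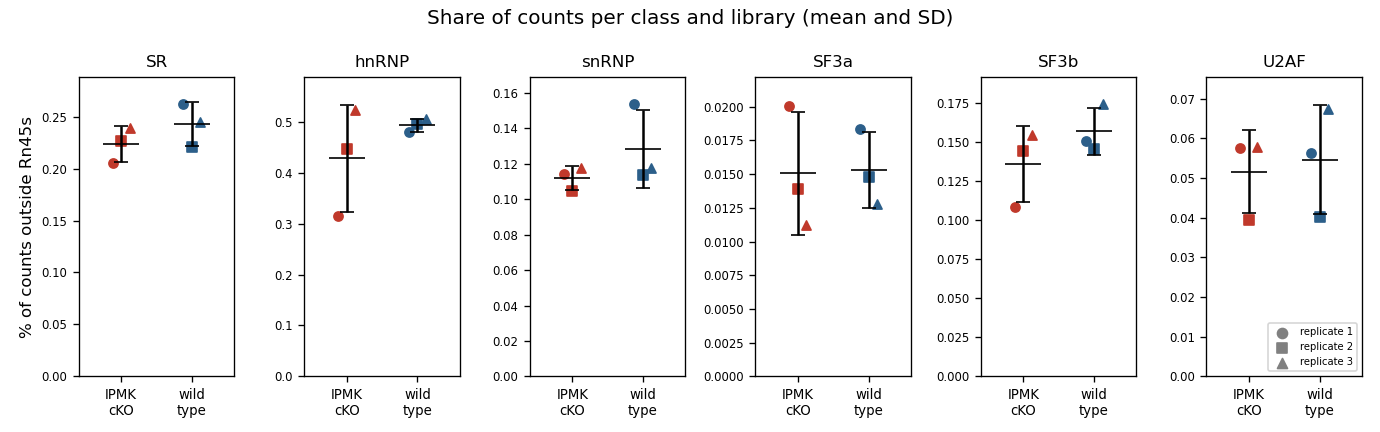
Percentage of the counts outside Rn45s taken by each class in each library, with IPMK cKO left (red) and wild type right (blue), the replicate given by the marker, and the horizontal line and bar giving the mean and SD of 3 libraries. Each vertical axis starts at 0 and has its own range; the groups overlap in every class.

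Of the counts outside Rn45s, the snRNP protein genes took 0.112% ± 0.00676 in IPMK cKO and 0.128% ± 0.0221 in wild type (SD, n = 3 each). Their shares were 0.114%, 0.104% and 0.117% in IPMK cKO replicates 1 to 3, against 0.154%, 0.114% and 0.118% in wild type, the highest being wild type replicate 1. Among the 11 tested, 8 estimates lay below 0 and 3 above. Their median was −0.23, and −0.10 without IPMK cKO replicate 1. Without both libraries numbered 1 the median was +0.03. The Sm proteins encoded by Snrpb, Snrpd1, Snrpd2, Snrpd3, Snrpe, Snrpf and Snrpg form the ring that encloses the spliceosomal small nuclear RNAs. Snrpb was at 85.6, 95.4 and 89.2 CPM in IPMK cKO, against 109, 87.3 and 99.02 CPM in wild type. Snrpg was at 123, 94.9 and 79.7 CPM in IPMK cKO, against 130.2, 90.3 and 105 CPM in wild type. Both sets of libraries overlapped, with estimates of −0.13 (SE 0.30) and −0.13 (SE 0.32), and −0.10 and −0.32 without IPMK cKO replicate 1.

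Snrpd3 had its highest level in IPMK cKO replicate 1. It was at 321, 114 and 148 CPM in IPMK cKO, against 156, 129.6 and 128 CPM in wild type. Its estimate was +0.49 (SE 0.39), and −0.08 without IPMK cKO replicate 1. Snrpd1 was at 94.4, 42.6 and 55.5 CPM in IPMK cKO, against 122, 56.2 and 73.1 CPM in wild type, and Snrpd2 at 75.4, 39.2 and 73.8 CPM in IPMK cKO, against 68.5, 53.6 and 44.8 CPM in wild type. The pair had estimates of −0.39 (SE 0.43) and +0.18 (SE 0.40), and −0.78 and +0.02 without IPMK cKO replicate 1. Over the libraries left out in turn, the estimates ran −0.78 to −0.013 for Snrpd1 and +0.017 to +0.39 for Snrpd2. Wild type replicate 1 was the highest library for Snrpd1. Snrpe was at 52.5, 75.1 and 103 CPM in IPMK cKO, against 108, 95.1 and 71.1 CPM in wild type (estimate −0.25, SE 0.36), and Snrpf at 58.8, 35.7 and 48.7 CPM in IPMK cKO, against 61.4, 63.8 and 46.1 CPM in wild type (estimate −0.26, SE 0.39). Snrpd1 and Snrpe have near-identical copies of their transcript ends and Snrpf overlaps Ccdc38 on the other strand, so these 3 counts are uncertain. Snrpe was at −0.05 and Snrpf at −0.44 on the log2 scale without IPMK cKO replicate 1.

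The proteins of single snRNPs were less abundant, except Snrpb2. Snrpb2 (U2 snRNP) was at 158, 232 and 204 CPM in IPMK cKO, against 273, 186 and 239 CPM in wild type (estimate −0.23, SE 0.29). Its partner in the U2 snRNP, Snrpa1, had 1 count in IPMK cKO replicate 1. Snrpa1 was at 0.141, 24.7 and 28.2 CPM in IPMK cKO, against 24.4, 24.7 and 16.4 CPM in wild type, so the low value was in that library alone. The estimates of Snrpb2 and Snrpa1 without it were −0.10 and +0.27, with Snrpa1 at −0.30 (SE 1.12) with all libraries. The U1 snRNP protein Snrpa was at 8.02, 8.62 and 4.67 CPM in IPMK cKO, against 12.2, 20.8 and 8.74 CPM in wild type, and every IPMK cKO library was the lower. Its estimate was −0.97 (SE 0.95, unadjusted p = 0.330, edgeR adjusted p = 0.9999), and 2 pseudogenes share its transcript end. Snrpc, also of U1 and also with a pseudogene copy, was at 13.5, 12.2 and 15.5 CPM in IPMK cKO, against 16.4, 14.2 and 9.46 CPM in wild type (estimate +0.04, SE 0.77).

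Snrpn, an imprinted gene whose SmN protein replaces the Snrpb product mainly in neurons, had 0 counts in each IPMK cKO library, against 89, 0 and 8 counts in wild type replicates 1 to 3. Snurf, encoded on the same transcript, was listed with the same 6 counts, so the files do not separate the 2 symbols. Counted over the group, Snrpn was at least 31.5-fold lower in IPMK cKO than in wild type against a floor of 3 counts, for counting error only. Nearly all of its counts came from wild type replicate 1.

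The 3 SF3a subunits, which stabilize the U2 snRNP, had estimates on both sides of 0. Sf3a3 was at 12.7, 12.02 and 19.5 CPM in IPMK cKO, against 48.7, 28.4 and 29.96 CPM in wild type, so every IPMK cKO library was the lower. Its estimate was −1.28 (SE 0.57, unadjusted p = 0.0467, edgeR adjusted p = 0.9999), and −1.19 without IPMK cKO replicate 1. In mm10 Sf3a3 spans bases 124714776 to 124732460 of chromosome 4 (plus strand; ENSMUSG00000028902). Sf3a1 was at 117, 65.5 and 50.5 CPM in IPMK cKO, against 70.3, 60.7 and 45.3 CPM in wild type, and Sf3a2 at 44.9, 25.5 and 11.2 CPM in IPMK cKO, against 11.1, 17.8 and 16.02 CPM in wild type. Both were highest in IPMK cKO replicate 1. Their estimates were +0.40 (SE 0.41) and +0.86 (SE 0.69), and −0.03 and +0.29 without that library. The median of the 3 was +0.40, and −0.03 without IPMK cKO replicate 1. Of the counts outside Rn45s, the 3 genes took 0.0151% ± 0.00454 in IPMK cKO and 0.0153% ± 0.00281 in wild type (SD, n = 3 each).

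In the SF3b complex, which holds the branch point, Sf3b1 and Sf3b2 were abundant and had overlapping groups, and Sf3b6 was lower in all 3 IPMK cKO libraries. Sf3b1, the HEAT-repeat scaffold, was at 266, 509 and 472 CPM in IPMK cKO, against 339.9, 434 and 492 CPM in wild type (estimate −0.02, SE 0.31). Sf3b2 was at 553, 409 and 423 CPM in IPMK cKO, against 439, 401 and 434 CPM in wild type (estimate +0.12, SE 0.26). Neither differed beyond its spread, and the estimates were +0.21 and −0.03 without IPMK cKO replicate 1. Sf3b6 (p14), a small subunit, was at 17.03, 66.5 and 55.9 CPM in IPMK cKO, against 101, 91.8 and 142 CPM in wild type. Every IPMK cKO library was below every wild type library, and replicate 1 was the lowest. Means were 46.5 ± 26.1 CPM in IPMK cKO and 112 ± 26.6 CPM in wild type (SD, n = 3 each). The estimate was −1.26 (SE 0.48, unadjusted p = 0.0238, edgeR adjusted p = 0.9999), the smallest unadjusted p of the 53 genes, and −0.87 without IPMK cKO replicate 1. In mm10 Sf3b6 spans bases 4817544 to 4827659 of chromosome 12 (plus strand; ENSMUSG00000037361).

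Sf3b5, a small subunit, was at 19.4, 16.7 and 50.7 CPM in IPMK cKO, against 75.8, 39.2 and 72.6 CPM in wild type. The groups overlapped through IPMK cKO replicate 3. Its estimate was −1.11 (SE 0.53, unadjusted p = 0.0610, edgeR adjusted p = 0.9999). Sf3b3 was at 40.4, 59.97 and 91.3 CPM in IPMK cKO, against 85.5, 62.04 and 76.2 CPM in wild type (estimate −0.22, SE 0.39). Sf3b4, which contacts RNA upstream of the branch point, was at 45.6, 10.8 and 24.8 CPM in IPMK cKO, against 29.2, 24.5 and 26.7 CPM in wild type. Of its IPMK cKO libraries, 1 lay above and 1 below all wild type libraries, with an estimate of +0.01 (SE 0.61) that was −0.15 with library totals without Rn45s. Without IPMK cKO replicate 1 the estimates were −0.89 for Sf3b5, +0.01 for Sf3b3 and −0.59 for Sf3b4. Phf5a, a further small subunit that the name rule leaves out, was at 97.4, 66.1 and 62.1 CPM in IPMK cKO, against 42.1, 48.1 and 53.1 CPM in wild type, so every IPMK cKO library was the higher (estimate +0.65, SE 0.36, unadjusted p = 0.101, edgeR adjusted p = 0.9999). Its estimate was +0.42 without IPMK cKO replicate 1, its highest library. Phf5a was named after its values were seen. Of the 6 SF3b estimates, 4 lay below 0 and 2 above, with a median of −0.12, and −0.31 without IPMK cKO replicate 1. Of the counts outside Rn45s, the 6 genes took 0.136% ± 0.0242 in IPMK cKO and 0.157% ± 0.0151 in wild type (SD, n = 3 each).

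The 3 U2AF genes had estimates near 0 and overlapping groups. U2af2, the large subunit, which binds the polypyrimidine tract, was at 420.4, 211 and 326 CPM in IPMK cKO, against 321, 223 and 384 CPM in wild type. U2af1, the small subunit, which recognizes the AG at the intron end, was at 33.8, 52.3 and 69.01 CPM in IPMK cKO, against 38.4, 50.02 and 62.5 CPM in wild type. U2af1l4, a paralog of the small subunit, was at 46.2, 29.8 and 23.3 CPM in IPMK cKO, against 40.2, 16.8 and 35.7 CPM in wild type. The estimates were +0.05 (SE 0.33), +0.04 (SE 0.42) and +0.10 (SE 0.54). Their sign depended on the scaling: with upper-quartile scaling U2af2 was at −0.02 and U2af1 at −0.0010, and with library totals without Rn45s the 3 estimates were −0.09, −0.04 and −0.05. Without IPMK cKO replicate 1 U2af2, U2af1 and U2af1l4 were at −0.21, +0.27 and −0.23, and the class median was −0.21 in place of +0.05. U2af1 shares its transcript end with a pseudogene, and the transcript end of U2af1l4 overlaps an exon of Gm49396 on the same strand, so both counts are uncertain.

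**Figure D4:**
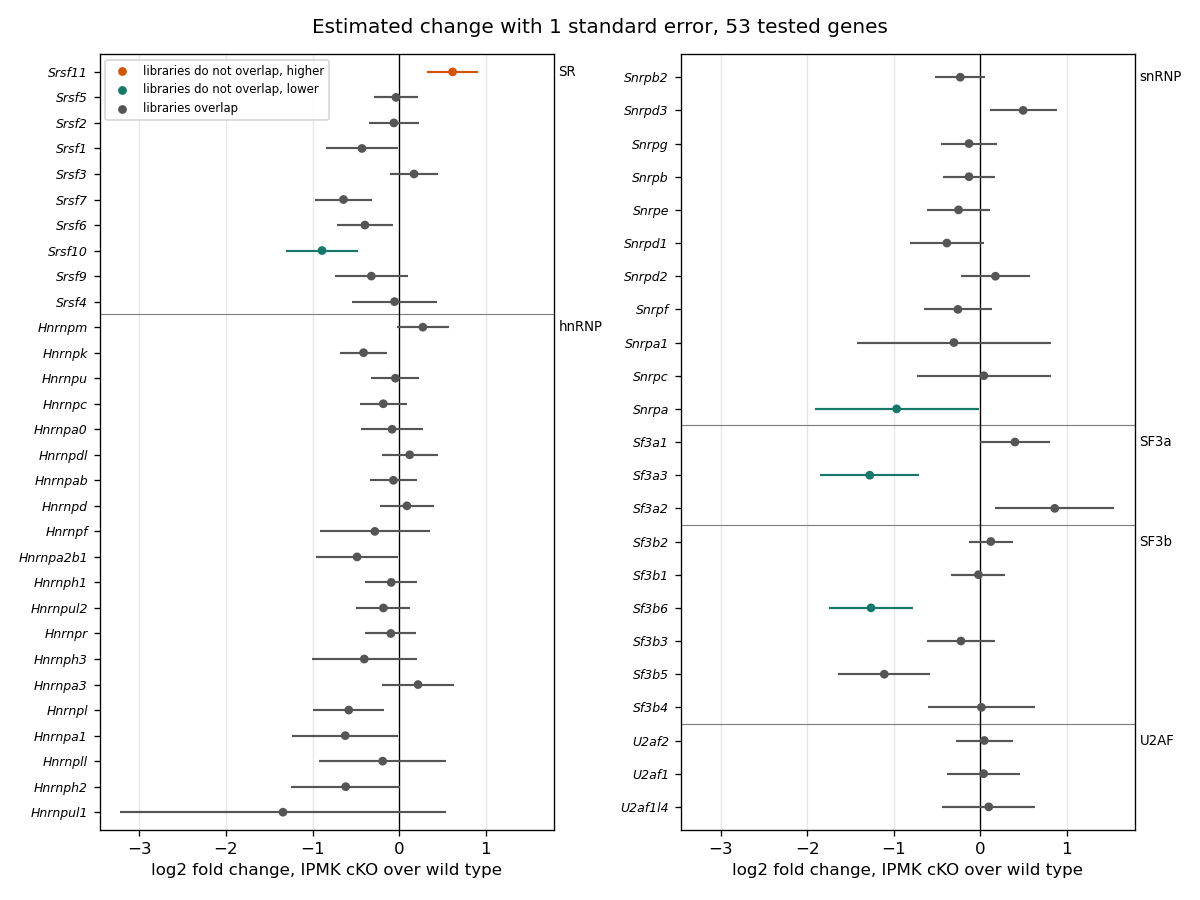
Log2 fold change, IPMK cKO over wild type, with 1 standard error from edgeR for the 53 tested genes, ordered as in the plot of levels. Orange marks Srsf11, higher in every IPMK cKO library, and green marks Srsf10, Snrpa, Sf3a3 and Sf3b6, lower in every IPMK cKO library; none was called at an adjusted p of 0.05.

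Without IPMK cKO replicate 1, 3 of the 53 genes (Srsf11, Srsf3 and Hnrnpa3) were higher in both remaining IPMK cKO libraries than in any wild type library, and 6 (Srsf10, Hnrnpul2, Snrpd1, Snrpa, Sf3a3 and Sf3b6) were lower. The shares of all genes tested were 9.70% and 10.1%. Of the 5 genes that separated with all libraries, Snrpa has near-identical copies of its transcript end and the others have none at 95% identity over 100 bases. The promoter sequences of those 4 genes, of the 5 whose libraries separated, are given here. Each runs from 250 bases before to 50 after a RefSeq transcription start (GRCm38.p6, the assembly of mm10). For Srsf11 the first of 2 windows is given. Capitals mark, on either strand, the CCAAT box, the ETS factor core CGGAAG, the GC box GGGCGG and the TATA element TATAAA.
Sf3b6 (chr12:4817358-4817657, plus strand): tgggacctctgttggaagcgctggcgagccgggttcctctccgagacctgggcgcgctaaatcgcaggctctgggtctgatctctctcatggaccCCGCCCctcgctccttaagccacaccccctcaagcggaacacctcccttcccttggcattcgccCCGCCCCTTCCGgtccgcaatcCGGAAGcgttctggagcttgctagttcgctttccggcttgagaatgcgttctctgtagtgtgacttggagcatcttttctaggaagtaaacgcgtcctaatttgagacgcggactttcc
Sf3a3 (chr4:124714611-124714910, plus strand): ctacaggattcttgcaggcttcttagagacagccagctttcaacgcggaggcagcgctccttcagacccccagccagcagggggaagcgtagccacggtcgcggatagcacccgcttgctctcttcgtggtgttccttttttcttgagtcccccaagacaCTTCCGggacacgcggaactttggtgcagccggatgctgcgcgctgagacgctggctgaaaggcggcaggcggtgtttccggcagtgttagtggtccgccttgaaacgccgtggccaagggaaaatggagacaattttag
Srsf10 (chr4:135855821-135856120, plus strand): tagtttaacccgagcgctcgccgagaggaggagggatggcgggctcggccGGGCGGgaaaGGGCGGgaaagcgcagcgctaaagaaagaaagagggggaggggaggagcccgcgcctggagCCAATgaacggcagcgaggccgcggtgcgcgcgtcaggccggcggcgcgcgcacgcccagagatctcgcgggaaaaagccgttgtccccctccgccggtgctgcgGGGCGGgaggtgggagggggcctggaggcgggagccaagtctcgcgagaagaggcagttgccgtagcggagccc
Srsf11 (chr3:158036557-158036856, minus strand): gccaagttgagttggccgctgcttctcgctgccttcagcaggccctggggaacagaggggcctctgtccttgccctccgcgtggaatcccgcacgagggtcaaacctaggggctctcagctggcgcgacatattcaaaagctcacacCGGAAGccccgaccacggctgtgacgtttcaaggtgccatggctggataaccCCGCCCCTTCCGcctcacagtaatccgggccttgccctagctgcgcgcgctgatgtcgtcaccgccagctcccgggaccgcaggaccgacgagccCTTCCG

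None of the 4 windows holds TATAAA. Sf3b6, Sf3a3 and Srsf11 hold CGGAAG in 1 or both orientations, and Srsf10 holds CCAAT and 3 copies of GGGCGG. Sf3b6 and Srsf11 also hold GGGCGG, and in each a copy directly adjoins CGGAAG without sharing a base. Such windows were found for 48 of the 55 genes, 66 windows in all, of which 48.5% hold CGGAAG, 68.2% GGGCGG, 45.5% CCAAT and 10.6% TATAAA. In the 32841 windows of all genes the shares were 16.9%, 35.7%, 37.4% and 13.6%. Those windows were not limited to the genes tested here, and the shares were not matched for level or base content. The windows of the splicing genes were richer in G and C, with a median of 61.0% and 25.5 CG dinucleotides, against 52.7% and 7 in all windows. Matches of this kind describe sequence and were not compared with the change in IPMK cKO.

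A wider list of 132 spliceosome components and splicing regulators outside these name groups gave 129 genes in the files and 126 tested. None was called by edgeR, DESeq2 or limma-voom. Estimates were above 0 for 70 and below 0 for 56, with a median of +0.04, next to +0.03 for all genes. By edgeR 2 had an unadjusted p under 0.05 in the higher and 1 in the lower direction, and 9 (7.14%) and 5 (3.97%) separated the groups, against 4.74% and 5.66% of all genes. The smallest unadjusted p belonged to Gemin5, which binds small nuclear RNAs for the SMN complex. It was at 63.04, 24.7 and 10.4 CPM in IPMK cKO, against 0, 6.01 and 2.29 CPM in wild type, with an estimate of +3.56 (SE 1.31, unadjusted p = 0.0199, edgeR adjusted p = 0.9999). Without IPMK cKO replicate 1, its highest library, the estimate was +2.66.

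Of the tri-snRNP proteins, Snrnp27 was at 69.7, 88.3 and 85.4 CPM in IPMK cKO, against 24.3, 51.8 and 49.9 CPM in wild type (estimate +0.95, SE 0.40, unadjusted p = 0.0378, edgeR adjusted p = 0.9999). Prpf31 was at 124, 32.7 and 39.3 CPM in IPMK cKO, against 32.6, 30.2 and 30.8 CPM in wild type (estimate +1.06, SE 0.54), and its estimate was +0.20 without IPMK cKO replicate 1, which lay far above the rest. Prpf8, the core protein of the U5 snRNP and of the catalytic centre, was at 54.7, 124 and 85.04 CPM in IPMK cKO, against 174, 141 and 146 CPM in wild type, and every IPMK cKO library was the lower (estimate −0.81, SE 0.35, unadjusted p = 0.0428, edgeR adjusted p = 0.9999). Lsm5, of the Lsm ring on U6 RNA, was at 0.141, 1.18 and 1.62 CPM in IPMK cKO, against 9.14, 10.9 and 8.32 CPM in wild type, also without overlap (estimate −3.25, SE 1.64). Lsm1, of the cytoplasmic Lsm ring that serves mRNA decay, was at 1.69, 12.3 and 6.29 CPM in IPMK cKO, against 10.2, 34.7 and 27.1 CPM in wild type (estimate −1.83, SE 0.91). These 6 were the genes with the smallest p-values in each direction, and all had an edgeR adjusted p of 0.9999. Without IPMK cKO replicate 1 the estimates were +1.04 for Snrnp27, −0.56 for Prpf8, −2.75 for Lsm5 and −1.38 for Lsm1.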

How the data were processed

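The submitters deposited whole-number counts per gene symbol, not normalized, with 1 file per library, per the file headers and values. Libraries were made from total RNA with the Lexogen QuantSeq kit, per the labels' protocols. Bowtie2, edgeR, mm10 and hg19 are listed with neither role nor version, which comes from the submitters' processing notes; the sources used here do not state the counting program, annotation or strand setting. Groups came from the genotype labels, with 3 libraries each. The test was edgeR's (version 4.0.16, R 4.3.3; TMM scaling, filterByExpr with a minimum count of 10, quasi-likelihood test, two-sided, Benjamini-Hochberg adjustment over the 10475 genes tested, threshold 0.05). The SE is the estimate over the square root of F. Levels are CPM on the TMM-scaled library sizes. The procedure was also run on simulated counts, and its power to find true changes at this replication is not given here. Classes are described by counts, medians and shares without a list test. Transcript ends (the last 300 bases of protein-coding transcripts in GENCODE M21) were searched with BLAST 2.17.0 against all its transcripts at 95% identity over 100 bases; 8 of the 55 genes had a near-identical copy and 5 an overlapping exon of another gene, 12 with either. Coordinates are from GENCODE M21 and promoters from RefSeq (GRCm38.p6). The genes, classes and wider list were chosen with earlier results of these data known. Named genes were, per class, the 3 most abundant, the 2 lowest p-values in each direction, the largest estimate, those whose groups did not overlap, every SF3a, SF3b and U2AF gene and those too low to test, and from the wider list the 3 lowest p-values in each direction; the others were named after their values were seen. Alternatives were DESeq2 1.42.0, limma-voom (limma 3.58.1), other size factors, other filters, the replicate number as a block, removal of Rn45s, leaving out each library and both libraries numbered 1; upper-quartile scaling, library totals without Rn45s and a robust fit were added after the data were seen. Floors of 3 counts reflect counting error alone, because PCR copies are not told apart here.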

Additional observations from a re-analysis of the deposited data

How the results depend on the processing

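The count of splicing genes called stayed at 0 in each of the 17 alternatives by edgeR, DESeq2 and limma-voom, as did that of the wider list. The number of all genes called lower was 3 with DESeq2, 1 without both libraries numbered 1 and 0 to 1 over the libraries left out in turn, the 1 being without IPMK cKO replicate 1, against 0 otherwise. Leaving out each library in turn gave medians of −0.24 to −0.076 for the splicing genes, −0.47 to −0.12 for SR, −0.37 to −0.051 for hnRNP, −0.25 to −0.050 for snRNP, −0.026 to +0.63 for SF3a, −0.35 to −0.10 for SF3b, −0.21 to +0.22 for U2AF and −0.0047 to +0.098 for the wider list. The SR value moved most without IPMK cKO replicate 3. Without both libraries numbered 1 the snRNP median was +0.025, and with library totals without Rn45s the wider list was at −0.059 and the splicing genes at −0.24, where the median of all genes was −0.08 in place of +0.03. Of the 36 tested genes that the naming rule chose, 16 changed sign, none of them called, Snrpd3 (+0.49) and Sf3a1 (+0.40) among them. This tally and the changed values by setting cover those 36 genes only. Among the other members, without IPMK cKO replicate 1, Hnrnpf went from −0.28 to +0.23 and Hnrnph3 from −0.40 to +0.09. Hnrnpll went from −0.19 to +0.30 and Snrpa1 from −0.30 to +0.27. Hnrnpa0 went from −0.08 to +0.18 and Hnrnpd from +0.09 to −0.04. Over the libraries left out in turn the estimates ran −0.12 to +0.026 for Srsf5, −0.23 to +0.093 for Srsf2, −0.16 to +0.12 for Hnrnpu, −0.079 to +0.73 for Snrpd3, −0.026 to +0.63 for Sf3a1, −0.034 to +0.18 for Sf3b2, −0.21 to +0.21 for Sf3b1, −0.59 to +0.36 for Sf3b4, −0.57 to +0.014 for Sf3b3, −0.21 to +0.24 for U2af2, −0.23 to +0.33 for U2af1l4, −0.080 to +0.53 for Hnrnpa3, −0.32 to +0.020 for Snrpg and −0.23 to +0.27 for U2af1. With limma-voom the changed values were Sf3b4 −0.23. With a minimum count of 30 the changed values were Sf3b4 −0.015. With the replicate block the changed values were Sf3b4 −0.21. Without both libraries numbered 1 the changed values were Srsf5 +0.017, Srsf2 +0.18, Hnrnpm −0.045, Hnrnpu +0.097, Snrpb2 +0.037, Sf3b2 −0.0047, Sf3b1 +0.083, Sf3b4 −0.52, Sf3b3 +0.13 and U2af2 −0.18. With upper-quartile scaling the changed values were Sf3b4 −0.072, U2af2 −0.021 and U2af1 −0.0010. With library totals without Rn45s the changed values were Sf3b2 −0.0065, Sf3b4 −0.15, U2af2 −0.091, U2af1 −0.043 and U2af1l4 −0.050. The cause was not tested. Of the 36 genes that the naming rule chose, 20 kept their sign in all 17 alternatives, Sf3b6, Sf3a3, Srsf10, Srsf11 and Snrpa among them. The replicate block left the median of the splicing genes at −0.18 with 0 called. Deviations of same-numbered libraries correlated at 0.0261, 0.0754 and 0.0359, below 0.1, although each library correlated best with its own number, so the numbers were not taken as pairs. With all counts as the denominator the share of the 55 genes was 0.703% in IPMK cKO and 0.841% in wild type. Depth limits Srsf12, Snrpn and Hnrnpul1, which rest on few counts. It also limits the fold sizes of Lsm5, with 1, 9 and 16 counts in IPMK cKO, and Gemin5, with 0, 44 and 22 counts in wild type.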
